A study of Mus musculus with 9 samples.

Results

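The 58 genes described here act in mitosis: they encode the kinases that start it, the condensin rings that compact the chromosomes, the kinetochore that holds each chromosome, the motors and other proteins of the spindle, and the factors that part the chromosomes and divide the cell. They were taken by gene symbol from a deposited expression table of 19435 mouse genes, and all 58 were found there. A few of them, such as the growth mark Mki67 and the transcription factor Foxm1, act with the spindle, the kinetochore or condensin without being parts of them. The study measured polyadenylated RNA in 5 control oviducts and 4 tumors of mice. Oviducts 1 to 3 were labelled Dicer1+/D1693N, which is 1 normal allele and 1 allele with a changed residue in a cutting domain of Dicer1. Oviducts 4 and 5 were labelled Dicer1+/+, and tumors 1 to 4 were labelled Dicer1ko/D1693N, so no normal allele is named for the tumors. Dicer1 is the enzyme that cuts microRNA precursors. The labels give the tumors' tissue as oviduct and state that the mice had no treatment. Strain, age, and the Cre or promoter behind the knockout allele are not given in the sources used here, and nothing states whether the libraries came from separate animals, so the p-values measure the spread between these libraries only.

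In a dividing cell, cyclin B with the kinase Cdk1 starts mitosis, and the kinases Plk1, Aurka and Aurkb steer its later steps. Kinetochores built on the centromere protein Cenpa bind spindle microtubules, and the checkpoint proteins Bub1, Bub1b, Bub3, Mad2l1 and Ttk hold anaphase back until every chromosome is bound. Cdc20 then switches on the anaphase-promoting complex, which marks securin (Pttg1) and the B cyclins for destruction and so frees separase (Espl1) to open the cohesin rings. Many of these genes are transcribed mainly late in the cell cycle and fall silent in resting cells, through promoter elements named CHR (cell cycle genes homology region) and the CCAAT box, which is bound by NF-Y. The lining of the adult oviduct is made mostly of ciliated and secretory cells.

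Promoter sequences were looked up for the genes because this control works at the promoter. RefSeq's table of mouse promoters (GRCm38.p6), with 250 bases before and 50 after each gene's start, held 55 promoters of 50 of the 58 genes. The entries for Tpx2, Foxm1, Kif20a, Spc24, Aurkb, Incenp, Cdc25c and Smc4 were not matched. The 150 bases before the start are printed for 4 genes with some of the larger rises in the tumors (Ccnb1, Cdk1, Top2a and Cdc20), for the gene with the smallest difference (Bub3) and for the only members that were lower in the tumors on average (Nek2 and Pttg1). They run 5′ to 3′ on the gene's strand, and capitals mark the CHR core (TTTGAA, or TTCAAA on the other strand) and the CCAAT box (CCAAT, or ATTGG on the other strand), which were searched separately on both strands, so that matches could overlap.
Ccnb1: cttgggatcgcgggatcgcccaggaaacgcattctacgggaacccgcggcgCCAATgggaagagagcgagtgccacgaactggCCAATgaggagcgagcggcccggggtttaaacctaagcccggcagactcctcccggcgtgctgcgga
Cdk1: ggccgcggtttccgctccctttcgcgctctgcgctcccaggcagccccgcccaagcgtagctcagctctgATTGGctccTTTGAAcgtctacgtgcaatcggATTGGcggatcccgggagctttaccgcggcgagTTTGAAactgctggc
Top2a: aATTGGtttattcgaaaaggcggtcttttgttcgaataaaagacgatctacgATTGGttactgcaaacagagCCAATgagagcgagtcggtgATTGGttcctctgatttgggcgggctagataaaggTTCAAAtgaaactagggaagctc
Cdc20: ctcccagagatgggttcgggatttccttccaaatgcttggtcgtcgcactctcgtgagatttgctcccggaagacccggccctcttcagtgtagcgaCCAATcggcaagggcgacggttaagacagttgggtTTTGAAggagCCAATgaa
Bub3: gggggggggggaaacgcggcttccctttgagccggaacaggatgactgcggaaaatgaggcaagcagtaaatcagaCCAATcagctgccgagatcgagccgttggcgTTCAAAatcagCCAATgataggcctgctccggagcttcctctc
Nek2: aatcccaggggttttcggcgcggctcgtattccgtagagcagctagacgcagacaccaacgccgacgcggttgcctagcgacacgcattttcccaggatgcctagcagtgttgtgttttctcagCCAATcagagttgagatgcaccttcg
Pttg1: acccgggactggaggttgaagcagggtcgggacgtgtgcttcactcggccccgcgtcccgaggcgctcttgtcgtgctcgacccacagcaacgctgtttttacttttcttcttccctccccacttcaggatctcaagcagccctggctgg
Ccnb1 lies at chr13:100786487-100786636 on the minus strand, Cdk1 at chr10:69352913-69353062 on the minus strand, Top2a at chr11:99024190-99024339 on the minus strand and Cdc20 at chr4:118437344-118437493 on the minus strand. Bub3 lies at chr7:131560220-131560369 on the plus strand, Nek2 at chr1:191821323-191821472 on the plus strand and Pttg1 at chr11:43425982-43426131 on the minus strand. Cdk1, Top2a, Cdc20 and Bub3 hold both motifs, Ccnb1 and Nek2 hold the CCAAT box alone, and Pttg1 holds neither within the 300 bases. The Pttg1 window lies inside the gene as annotated by GENCODE, whose 5′ end on the minus strand is at chr11:43426251. Among genes with a CHR match, the windows of Cdca8, Kif2c, Cdca3 and Kif4 also lie inside the annotated gene. For these and Pttg1, the bases before the annotated 5′ end were not searched. The printed Bub3 bases lie almost wholly inside Bub3, which GENCODE starts at chr7:131560222. Over the list, 35 of 50 genes (70%) had a promoter with the CHR core, which was found in 69.1% of the members' promoters and in 17.9% of all 32851 promoters of the table. The CCAAT box stood in 74.5% of the members' promoters against 37.4% of all, and both motifs in 58.2% against 6.95%. Among promoters of genes in the expression table, the shares were 12.9% for the CHR core, 36.8% for the CCAAT box and 5.12% for both. Among 107 promoters of other mitosis genes, a list described below, they were 29.9%, 55.1% and 20.6%. Among 33 promoters found for genes of DNA replication, 12.1% held the CHR core and 57.6% the CCAAT box. A match is a run of letters in this window and does not show that a factor binds there. Only the exact core was searched for CHR, so a variant of it would be missed. The printed Ccnb1 bases hold the run TTTAAA, which was not searched.

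Dicer1 itself, at chr12:104687742-104751952, had 1237, 1005, 1145, 904 and 1141 normalized counts in oviducts 1 to 5 and 1283, 742, 1379 and 576 in tumors 1 to 4. The tumors overlapped the oviducts in both directions, and the log2 change was -0.21 ± 0.25 (SE, adjusted p = 0.568 by limma). The value counts reads over the whole gene, so it cannot show a deleted part or the D1693N change. Normalized counts are reads divided by a size factor for each library. They were recovered from the deposited log2 values, and the libraries held 8504993 to 12526078 reads in the oviducts and 8732190 to 11267144 in the tumors. Each log2 change was taken on the deposited scale, which is compressed at low counts, so it understates the change of low genes. A gene said to rise by a value rose by that value on the log2 scale. A gene was called when limma's Benjamini-Hochberg adjusted p over all 19435 genes was under 0.05 and its log2 change passed a minimum size. That minimum was 1 on the deposited scale, which is 2-fold for high genes and more than 2-fold for low ones. Cenpm, a low gene, had a 2.96-fold ratio of mean normalized counts and a log2 change of 0.89. All 10 markers of ciliated cells fell (median log2 change -6.07). Their summed level was 21048 to 33624 normalized counts in the 5 oviducts and 110 to 910 across the tumors, where Rsph4a, a part of the ciliary spokes, and Ccdc153 had no read in 3 of the 4. Of 10 markers of secretory cells, 1 was called higher, 3 were called lower and 6 were not called (median log2 change -0.49). The largest fall among them was that of Ovgp1, the main secreted protein of the oviduct, which ranged from 78144 to 150619 normalized counts over the oviducts and from 111.5 to 11678 over the tumors. Markers of fibroblasts (6 of 9 called higher), endothelium (6 of 8) and macrophages (6 of 10) moved the other way.

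Most of the mitosis genes were higher in the tumors than in the oviducts. Of the 58 genes, 51 rose, 1 fell (Nek2) and 6 were not called (Smc4, Cenpm, Bub3, Mad2l1, Kif18a and Pttg1). Over all genes of the table, 6.53% were called higher and 12.1% lower (1269 and 2356 genes, against 1696 and 1943 with quantile normalization). The median log2 change of the 58 was 2.13, with quartiles of 1.76 and 2.69, against -0.05 over all genes. As a ratio of mean normalized counts, 44 genes differed by at least 4-fold and 29 by at least 8-fold, and the ratios ran from 0.477 for Nek2 to 21.8 for Ccnb1. For 52 genes every tumor lay above every oviduct, which held for 10.8% of all genes. The 58 genes together took 0.0418% to 0.0516% of the reads in the oviducts and 0.149% to 0.235% in the tumors. In whole tissue, more dividing cells and more RNA of these genes per cell cannot be told apart. The summed fibroblast markers were 27778 to 57800 normalized counts across the oviducts and 140334 to 153242 across the tumors. Endothelial markers summed to 2475 to 4327 and 5417 to 11349, and macrophage markers to 4081 to 6548 and 6747 to 52072. These levels were higher in the same libraries as the mitosis genes, and the ciliated cell markers were lower there, and the part of these cells in the result was not tested.

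**Figure D1:**
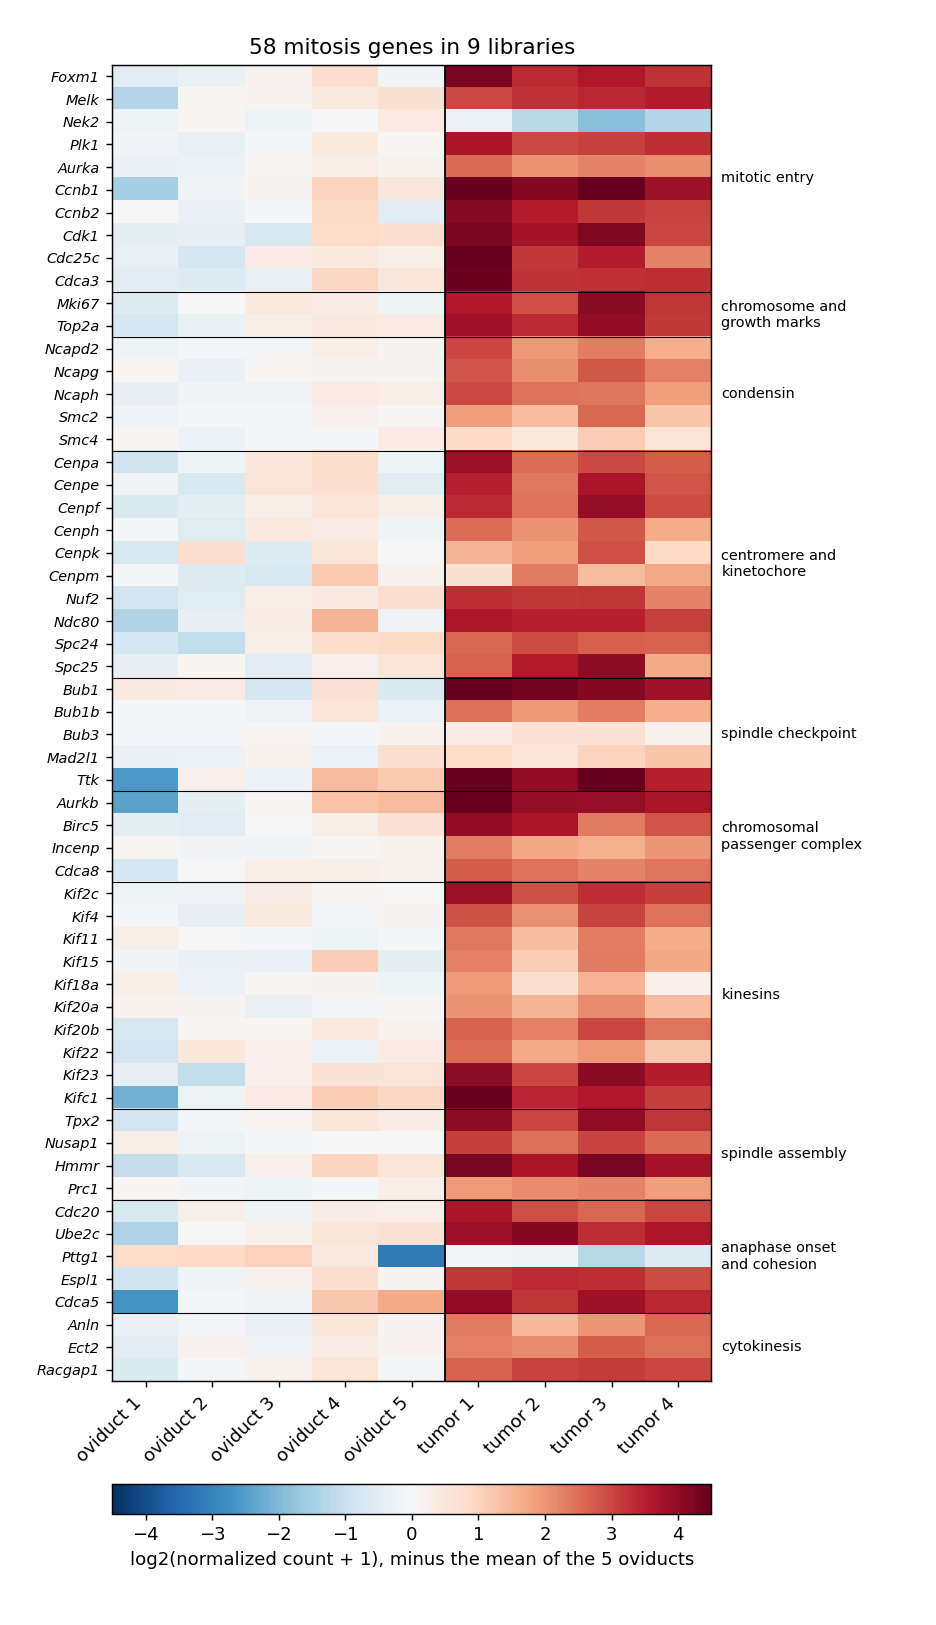
Level of each of the 58 genes (rows, by role) in the 9 libraries (columns), as log2(normalized count + 1) minus the mean of the 5 oviducts, with colours saturated at the ends of the scale. The 4 tumor columns are red for all rows except Nek2 and Pttg1, and pale for Bub3, Smc4 and Mad2l1.

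Genes of mitotic entry rose in 9 of 10 cases, with a median log2 change of 2.68. Ccnb1, the B cyclin that activates Cdk1, had 4.5, 12.7, 15.9, 29.9 and 21.2 normalized counts in oviducts 1 to 5 and 512, 271, 469.5 and 214 in tumors 1 to 4. The lowest tumor lay 7.15-fold above the highest oviduct, and the log2 change of 3.46 ± 0.34 (SE, adjusted p = 3.64e-05 by limma) was the largest of the list. Ccnb2, the second B cyclin, had 20.1, 16.5, 18.9, 37.7 and 14.5 normalized counts in oviducts 1 to 5 and 364, 252, 191 and 176 in tumors 1 to 4. Its groups stood clear of each other too, with a log2 change of 2.71 ± 0.27 (SE, adjusted p = 4.41e-05 by limma). Cdk1 had 25.7, 27, 20.9, 63.7 and 60.3 normalized counts in oviducts 1 to 5 and 688, 485, 671 and 291 in tumors 1 to 4. Every tumor exceeded every oviduct, and oviducts 4 and 5 were higher than oviducts 1 to 3. The log2 change was 3.24 ± 0.33 (SE, adjusted p = 5e-05 by limma). Plk1, a kinase needed for spindle assembly and for division, had 24.6, 21, 25.9, 36.2 and 27.9 normalized counts in oviducts 1 to 5 and 349, 216, 233 and 273 in tumors 1 to 4. Its 4 tumors were 1.62-fold apart at most and all far above the oviducts (log2 change 2.64 ± 0.21 SE, adjusted p = 1.1e-05 by limma). Aurka, the kinase of the spindle poles, had 26.8, 27, 34.8, 40.9 and 36.8 normalized counts in oviducts 1 to 5 and 199, 136, 158 and 142 in tumors 1 to 4. It rose by less than the other kinases of this group that rose, by 1.77 ± 0.21 (SE, adjusted p = 0.000131 by limma) on the log2 scale. Foxm1, the transcription factor that drives late cell cycle genes, had 14.5, 16.5, 22.9, 35.4 and 19 normalized counts in oviducts 1 to 5 and 404, 218, 260.1 and 205 in tumors 1 to 4. Tumor 1 was the highest, and no tumor reached down to the oviducts (log2 change 2.84 ± 0.26 SE, adjusted p = 2.39e-05 by limma). Melk, a kinase of dividing cells, Cdc25c, the phosphatase that activates Cdk1, and Cdca3, which helps to destroy an inhibitor of Cdk1, rose with log2 changes of 2.41, 1.92 and 2.84.

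Nek2 did not follow the group. This kinase, which parts the centrosomes before mitosis, had 276, 335, 278, 326 and 411 normalized counts in oviducts 1 to 5 and 265, 139.7, 86.7 and 129 in tumors 1 to 4. All 4 tumors were below all 5 oviducts, although tumor 1, at 265, was close to the lowest oviduct, at 276. Nek2 fell, with a log2 change of -1.06 ± 0.27 (SE, adjusted p = 0.0126 by limma). The call rested on single libraries: without tumor 3 the change was -0.85, and without oviduct 5 it was -0.97, both short of the minimum size. With quantile normalization it was -0.94, also short of it. Per kilobase of transcript, Nek2 stood at 101 ± 17.1 normalized counts in the oviducts (SD, n = 5), above every member of the list except Pttg1, Bub3 and Smc4, and at 48.1 ± 23.8 in the tumors (SD, n = 4). Nek2 and the summed ciliated cell markers were both higher in the oviducts than in the tumors. Within the groups their orders matched only in part. Oviduct 3 had the highest marker sum (33624 normalized counts) with 278 for Nek2, while tumor 1 was the highest tumor for both. The part of ciliated cells in the result was not tested.

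The growth mark Mki67, a protein that coats mitotic chromosomes, had 82.6, 127, 170.2, 156 and 109 normalized counts in oviducts 1 to 5 and 1544, 944, 2088 and 1163 in tumors 1 to 4. Top2a, the topoisomerase that untangles sister chromatids, had 79.3, 109, 164, 176 and 175 normalized counts in oviducts 1 to 5 and 1852, 1391, 2141 and 1227 in tumors 1 to 4. Both separated the groups widely, and tumor 3 was the highest for each. The log2 changes were 3.25 ± 0.26 (SE, adjusted p = 9.59e-06 by limma) for Mki67 and 3.39 ± 0.25 (SE, adjusted p = 6.55e-06 by limma) for Top2a, which had the lowest adjusted p of the 58 genes.

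Of the 5 condensin genes, 4 rose (median log2 change of the 5, 2.04). Ncapg, a subunit found only in condensin I, had 48, 37.4, 47.8, 50.3 and 50.2 normalized counts in oviducts 1 to 5 and 338, 201, 326 and 227 in tumors 1 to 4. The groups stood clear, with a log2 change of 2.12 ± 0.21 (SE, adjusted p = 4.32e-05 by limma). Ncapd2 and Ncaph, the other condensin I subunits that are not shared, rose by 2.11 and 2.04, and Smc2, an ATPase arm of both condensins, by 1.66. Smc4, its partner arm, had 555, 438, 498, 509 and 677 normalized counts in oviducts 1 to 5 and 981, 714, 1182 and 816 in tumors 1 to 4. Every tumor was above every oviduct, but the lowest tumor was only 1.06-fold above the highest oviduct, and the log2 change of 0.75 ± 0.18 (SE, adjusted p = 0.009 by limma) was under the minimum size. Smc4 was already the third highest member per kilobase in the oviducts, at 124 normalized counts.

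**Figure D2:**
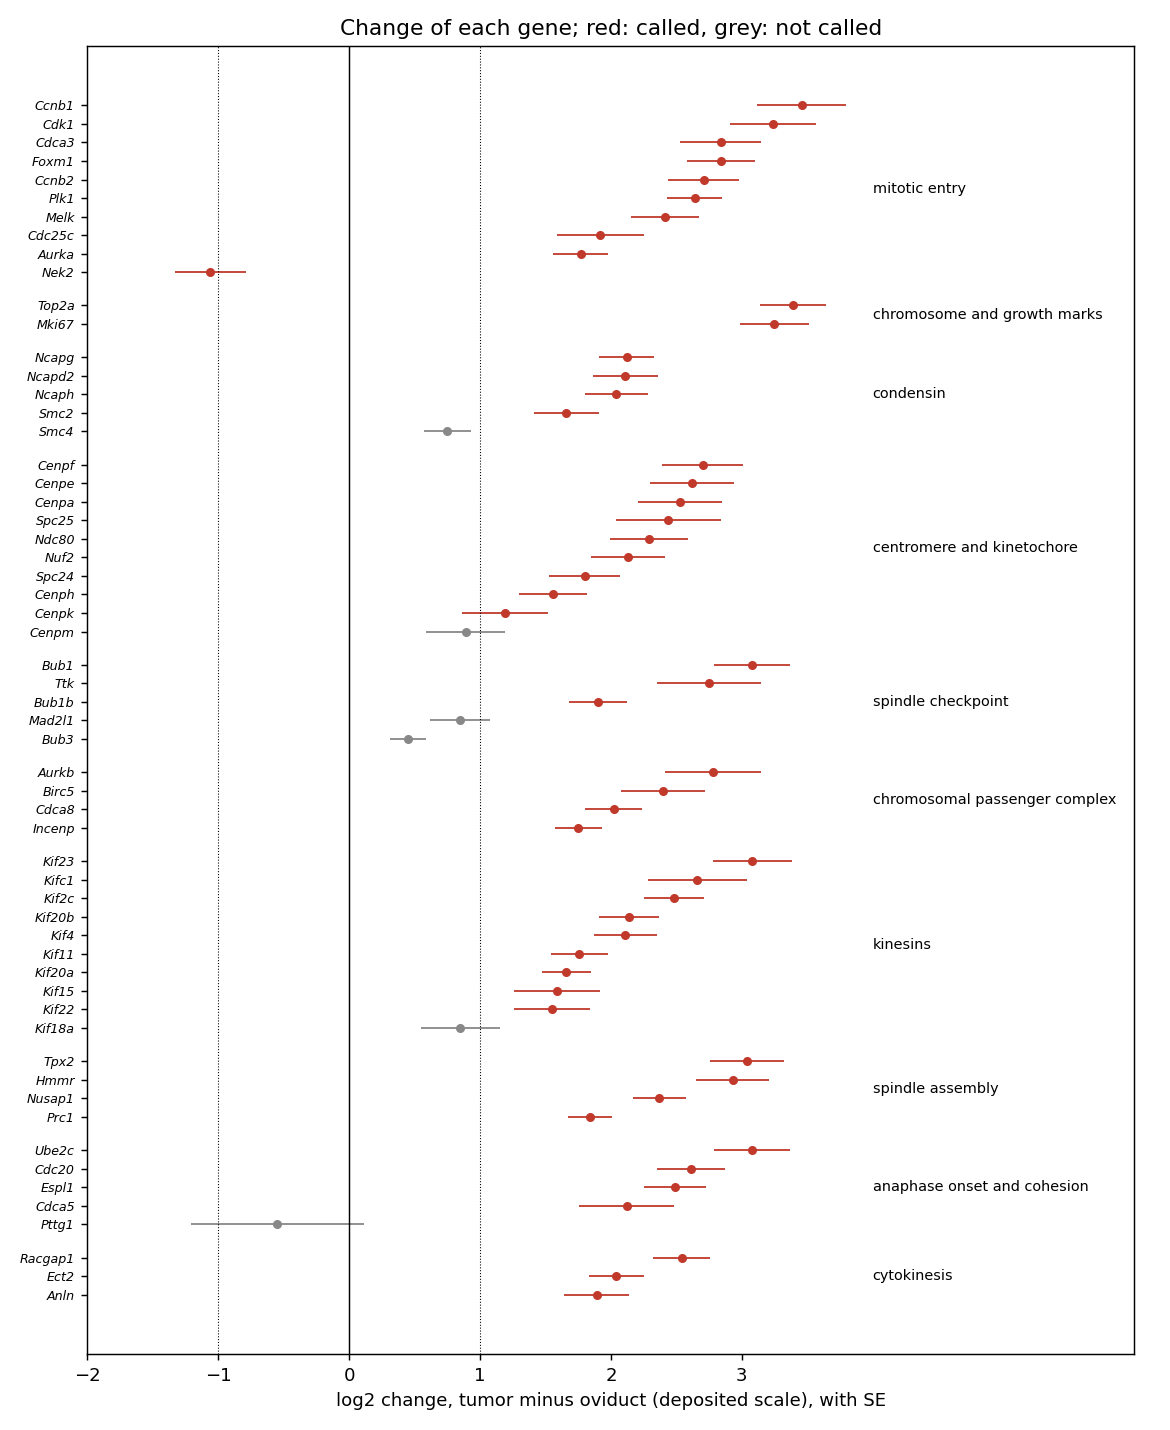
Log2 change of each gene, tumor minus oviduct (horizontal axis, deposited log2 scale), by role, with points for the estimates and bars for their standard errors. Red genes were called and grey ones were not, and dotted lines mark the minimum change of 1 in either direction. Nek2 is the only red point left of 0.

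At the centromere and kinetochore, 9 of 10 genes rose (median 2.21). Cenpa, the histone variant that marks the centromere, had 20.1, 32.9, 53.7, 67.6 and 33.5 normalized counts in oviducts 1 to 5 and 565, 224, 303 and 261 in tumors 1 to 4. Tumor 1 held the most, and the groups did not overlap (log2 change 2.53 ± 0.32 SE, adjusted p = 0.000228 by limma). The 2 large proteins of the outer kinetochore followed, Cenpe, a motor, with a log2 change of 2.62 and Cenpf with 2.70 ± 0.31 (SE, adjusted p = 0.000111 by limma), the largest of the group. Cenpf had 24.6, 29.2, 46.8, 58.2 and 46.9 normalized counts in oviducts 1 to 5 and 412, 218, 627 and 307 in tumors 1 to 4. Tumor 3 was the highest here, and all tumors exceeded all oviducts. The Ndc80 complex, the main microtubule clasp, has 4 subunits, and all 4 rose: Spc25 by 2.44, Ndc80 by 2.29, Nuf2 by 2.13 and Spc24 by 1.80. Ndc80 had 3.3, 7.5, 12.9, 30.7 and 8.9 normalized counts in oviducts 1 to 5 and 136, 124, 123 and 92.5 in tumors 1 to 4. The tumors were within 1.47-fold of each other, and the oviducts were spread more widely in proportion. Among the subunits, Spc24 stayed within 1.28-fold across the tumors and Spc25 spread over 5.05-fold, from 99.9 normalized counts in tumor 4 to 504 in tumor 3. Of the inner kinetochore, Cenph rose by 1.56. Cenpk had 8.9, 27, 10, 22.8 and 15.6 normalized counts in oviducts 1 to 5 and 46.6, 59, 122 and 29.4 in tumors 1 to 4. The tumors were all above the oviducts, narrowly for tumor 4. Its log2 change was 1.19 ± 0.33 (SE, adjusted p = 0.0213 by limma), and the call was lost without oviduct 1 (1.09), oviduct 3 (1.11) or tumor 3 (0.90). Cenpm had 10, 6.7, 6.0, 25.2 and 12.3 normalized counts in oviducts 1 to 5 and 17.5, 57.9, 30.4 and 36.8 in tumors 1 to 4. Oviduct 4 lay above tumor 1, so the groups overlapped, and the change of 0.89 ± 0.30 (SE, adjusted p = 0.0427 by limma) was not called. It passed without oviduct 4 (1.05) or tumor 1 (1.08), and with quantile normalization (1.19), array weights or limma-voom (1.57).

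The 5 checkpoint genes divided. Bub1, the kinase that docks the checkpoint at kinetochores, had 12.3, 12, 5.0, 14.9 and 5.6 normalized counts in oviducts 1 to 5 and 345, 202, 177 and 138 in tumors 1 to 4. Its lowest tumor was 9.22-fold above its highest oviduct, the widest gap of the 58 genes, with a log2 change of 3.08 ± 0.29 (SE, adjusted p = 2.79e-05 by limma). Ttk, also named Mps1, the kinase that starts checkpoint signalling, and Bub1b, which blocks Cdc20, rose by 2.75 and 1.90. Ttk had no read in oviduct 1, as did Cdca5, and these were the only members with a library at 0. Bub3, which carries Bub1 and Bub1b to the kinetochore, had 517, 523, 562, 527 and 616 normalized counts in oviducts 1 to 5 and 708, 858, 862 and 619 in tumors 1 to 4. The groups were separate, but tumor 4 was hardly above oviduct 5, and the log2 change of 0.45 ± 0.14 (SE, adjusted p = 0.0305 by limma) was the smallest of the list in size and was not called. Mad2l1, which also blocks Cdc20, had 153, 157, 210.0, 156 and 310.4 normalized counts in oviducts 1 to 5 and 335, 293, 383 and 449 in tumors 1 to 4. Oviduct 5 lay above tumor 2. The log2 change was 0.85 ± 0.23 (SE, adjusted p = 0.0164 by limma), short of the minimum size, and was 1.02 and called without oviduct 5.

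All 4 genes of the chromosomal passenger complex rose (median 2.21). This complex corrects faulty attachments and later guides the cleavage furrow. Its kinase Aurkb had 1.1, 7.5, 10.9, 25.9 and 29 normalized counts in oviducts 1 to 5 and 265, 170.3, 168 and 142 in tumors 1 to 4. Oviduct 1 had 1 read, and oviducts 4 and 5 were the highest of the controls but far under every tumor (log2 change 2.78 ± 0.37 SE, adjusted p = 0.00028 by limma). Birc5, also named survivin, had 12.3, 12, 16.9, 20.4 and 26.8 normalized counts in oviducts 1 to 5 and 286, 226, 88.9 and 126 in tumors 1 to 4. The tumors differed 3.21-fold among themselves, with tumor 3 lowest, and still lay above all oviducts (log2 change 2.40 ± 0.32 SE, adjusted p = 0.000344 by limma). Incenp, the scaffold, had 116, 100.3, 100.5, 114 and 123 normalized counts in oviducts 1 to 5 and 554, 375, 336 and 441 in tumors 1 to 4. Its oviducts varied the least of the 4 genes in proportion, and its log2 change of 1.75 ± 0.18 (SE, adjusted p = 5.02e-05 by limma) was the smallest of the 4. Cdca8, also named borealin, rose by 2.02.

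Of the 10 kinesins, 9 rose (median 1.93). Kif11, the motor that pushes the spindle poles apart, had 124, 104, 100.5, 91.2 and 99.4 normalized counts in oviducts 1 to 5 and 537, 272, 512 and 332 in tumors 1 to 4. Tumor 2 was the lowest tumor and was still 2.20-fold above the highest oviduct (log2 change 1.76 ± 0.22 SE, adjusted p = 0.00021 by limma). Kif23, a motor of the midzone needed for cell division, had 25.7, 15, 38.8, 52.7 and 50.2 normalized counts in oviducts 1 to 5 and 552, 272, 564 and 399 in tumors 1 to 4. It had the largest change among the kinesins, 3.08 ± 0.30 (SE, adjusted p = 4.22e-05 by limma). Kifc1, which bundles the poles, Kif2c, which takes microtubules apart at kinetochores, Kif20b, Kif4, Kif20a and Kif22 rose with log2 changes of 2.66, 2.48, 2.14, 2.11, 1.66 and 1.55. Kif15, which can stand in for Kif11, had 54.7, 48.7, 47.8, 129.7 and 44.7 normalized counts in oviducts 1 to 5 and 292, 128, 303 and 202 in tumors 1 to 4. It rose by 1.59 ± 0.33 (SE, adjusted p = 0.00454 by limma), although oviduct 4 reached just above tumor 2. Kif18a, which dampens chromosome movement, had 40.2, 27.7, 34.8, 36.9 and 29 normalized counts in oviducts 1 to 5 and 130.1, 56.8, 101 and 38.9 in tumors 1 to 4. Tumor 4 lay among the oviducts, and the change of 0.85 ± 0.30 (SE, adjusted p = 0.051 by limma) was not called. Without tumor 4 it was 1.09 and called, as it was with quantile normalization (1.10).

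The spindle assembly factors all rose (4 of 4, median 2.65). Tpx2, which activates Aurka on the spindle, had 20.1, 35.2, 39.8, 55 and 48 normalized counts in oviducts 1 to 5 and 625, 311, 606 and 358 in tumors 1 to 4. Tumors 1 and 3 were about even and above tumors 2 and 4, and all exceeded the oviducts (log2 change 3.04 ± 0.28 SE, adjusted p = 2.61e-05 by limma). Prc1, which bundles the midzone microtubules, had 98.2, 86.1, 79.6, 89.6 and 116 normalized counts in oviducts 1 to 5 and 352, 409, 444 and 344 in tumors 1 to 4. Its tumors were within 1.29-fold of each other, and its change was the smallest of the 4 (log2 change 1.84 ± 0.17 SE, adjusted p = 2.38e-05 by limma). Hmmr and Nusap1, both microtubule-binding, rose by 2.93 and 2.37.

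Among the genes of anaphase onset and cohesion, 4 of 5 rose (median 2.49). Cdc20, the activator of the anaphase-promoting complex, had 25.7, 52.4, 37.8, 55 and 53.6 normalized counts in oviducts 1 to 5 and 558, 333, 267 and 356 in tumors 1 to 4. The groups stood clear (log2 change 2.61 ± 0.26 SE, adjusted p = 4.06e-05 by limma). Ube2c, the ubiquitin carrier of that complex, had 10, 28.4, 31.8, 41.7 and 44.7 normalized counts in oviducts 1 to 5 and 414, 511, 290.5 and 359.7 in tumors 1 to 4. Here tumor 2 was the highest (log2 change 3.08 ± 0.29 SE, adjusted p = 2.78e-05 by limma), and per kilobase Ube2c was the highest member in the tumors, at 407 normalized counts. Espl1 and Cdca5, also named sororin, which protects cohesion, rose by 2.49 and 2.12. Pttg1, or securin, the inhibitor of Espl1, had 435, 451, 496, 323 and 25.7 normalized counts in oviducts 1 to 5 and 230.2, 217, 102 and 159.9 in tumors 1 to 4. Oviduct 5 held the lowest value of all 9 libraries and the other 4 oviducts held the highest values. The change of -0.55 ± 0.66 (SE, adjusted p = 0.564 by limma) was not called. Without oviduct 5 it was -1.21, with an adjusted p of 0.00787 by limma, and was called lower. Oviduct 4, of the same genotype as oviduct 5, had a value of 323.

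**Figure D3:**
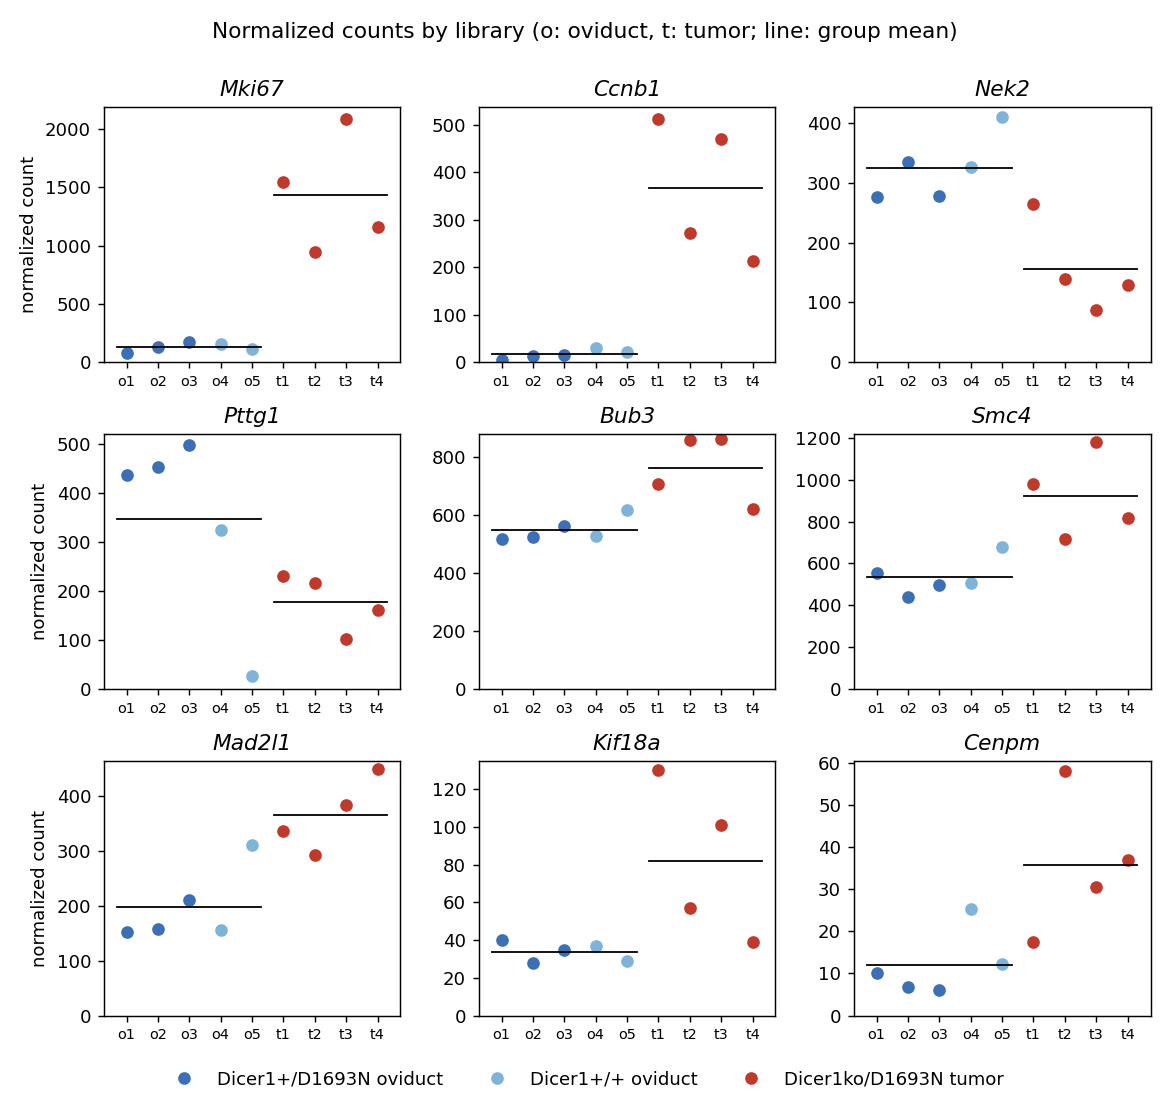
Normalized counts (vertical axis, from 0) of 9 genes in each library, with a line at each group mean. Mki67 and Ccnb1 show the common pattern, with every tumor far above every oviduct, Nek2 has every tumor below every oviduct with tumor 1 close to them, Pttg1 has 1 oviduct at 25.7, and the other 5 genes show small gaps or overlap.

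The 3 genes of cytokinesis rose (median 2.04). Racgap1, a part of the midzone complex with Kif23, had 29, 42.7, 50.7, 69.2 and 43.5 normalized counts in oviducts 1 to 5 and 290.4, 379, 409.8 and 373 in tumors 1 to 4. Oviducts and tumors were well apart (log2 change 2.54 ± 0.22 SE, adjusted p = 1.61e-05 by limma). Anln, which links the contractile ring to the membrane, had 74.8, 88.3, 76.6, 136 and 103 normalized counts in oviducts 1 to 5 and 473, 261, 376 and 565 in tumors 1 to 4. It was the only gene of the 3 with tumor 4 highest and had the smallest change (log2 change 1.89 ± 0.25 SE, adjusted p = 0.000271 by limma). Ect2, which switches on the ring, rose by 2.04.

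Members ranked the tumors in different orders. Tumor 1 was the highest of the 4 for 32 of the 58 genes and tumor 3 for 19, and the lowest was tumor 4 for 25 and tumor 2 for 22. The mean log2 level of the 58 genes was 8.42, 7.95, 8.26 and 7.84 in tumors 1 to 4. Of the mitotic entry genes, 9 of 10 were highest in tumor 1, as were all 4 genes of the passenger complex, of which 3 were lowest in tumor 3. Of the kinetochore genes, 5 of 10 were highest in tumor 3. Each tumor is a single library, so these orders have no replicate behind them. Markers of other cells differed between the tumors too. The summed macrophage markers were 19423, 31329, 6747 and 52072 normalized counts in tumors 1 to 4, the red cell markers 49414, 1565, 1032 and 1358, the smooth muscle markers 71074, 22775, 3562 and 12747 and the fat cell markers 205, 53, 34 and 36808. Tumor 4 had the most macrophage and fat cell signal and tumor 1 the most smooth muscle and red cell signal, and their part in the order was not tested. With tumors 1 and 4 both left out, 52 of the 58 genes were called higher.

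**Figure D4:**
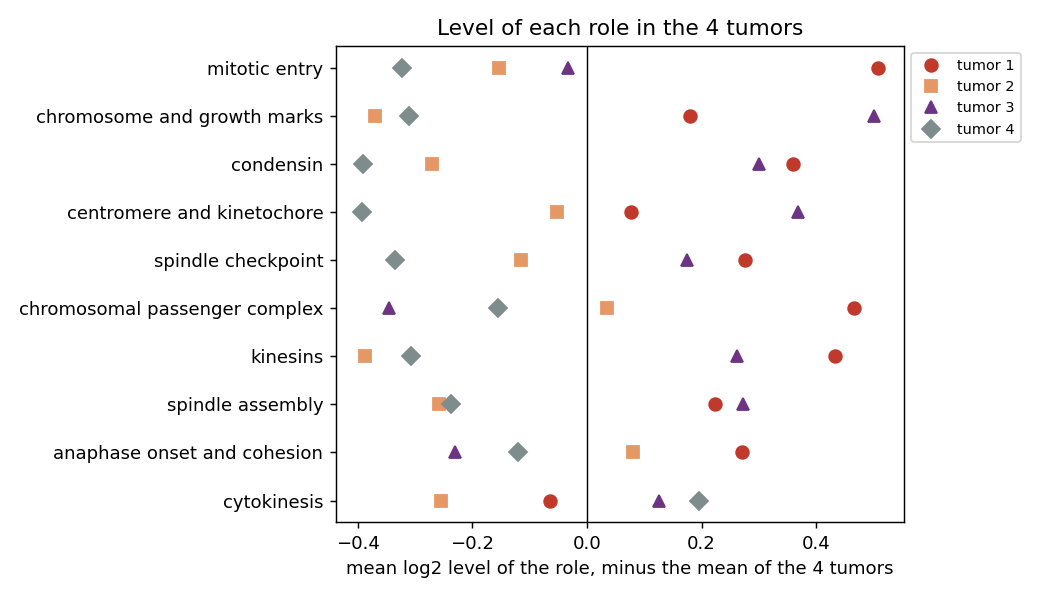
Mean log2 level of each role in each tumor, minus the mean of the 4 tumors for that role (horizontal axis). Tumor 1 lies to the right for all roles except cytokinesis, farthest for mitotic entry and the passenger complex. Tumor 3 moves from the right for the kinetochore to the left for the passenger complex, and tumor 4 lies to the left for all roles except cytokinesis.

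The 2 control genotypes were then set against the tumors one at a time, in a fit of 3 groups that share 1 estimate of the spread. Against the Dicer1+/D1693N oviducts, 52 of the 58 genes rose and 0 fell by limma (median log2 change 2.35), where 5.17% of all genes were called higher. Nek2 and Pttg1 were lower at an unadjusted p under 0.05, and limma-voom on the recovered reads called 1 of them lower, Nek2. Against the Dicer1+/+ oviducts, 49 rose and Nek2 fell (median 1.99), where 4.07% of all genes were called higher. Without oviduct 5 the Dicer1+/+ group is 1 library and 30 genes were called higher. Both comparisons use the same 4 tumors. Cenpm was called against the first genotype (1.13, adjusted p = 0.0311 by limma) and not against the second (0.54, adjusted p = 0.344), and Cenpk and Kif15 likewise, with 1.28 and 1.78 against the first and 1.05 and 1.29 against the second. Pttg1 was not called against either, at -1.34 and 0.62.

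Between the oviduct genotypes, no member was called by limma, or by limma-voom on the recovered reads, and 0.0206% of all genes were called. At an unadjusted p under 0.05 by limma stood 5 of 58, against 534 of all 19435 genes. The 5 were Cdk1, Spc24, Aurkb and Cdca5, lower in Dicer1+/D1693N, and Pttg1, higher. Cdk1 had 24.5 ± 3.19 normalized counts in the Dicer1+/D1693N oviducts (SD, n = 3) and 62.0 ± 2.39 in the Dicer1+/+ oviducts (SD, n = 2). Of the 58 genes, 53 had a negative difference, and the median was -0.33 against 0.01 over all genes. For 28 genes (48.3%) every Dicer1+/D1693N oviduct lay below every Dicer1+/+ oviduct, which held for 15.7% of all genes. The libraries behind this differ: oviduct 4 was the highest of the 5 for 32 genes and oviduct 1 the lowest for 33. Oviduct 4 also had the highest summed smooth muscle (76152 normalized counts) and fibroblast markers (57800) of the oviducts, and their part in the difference was not tested.

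A wider list of 113 measured genes of the same machinery, none of them a member, had 46 genes that rose and 2 that fell, with a median log2 change of 0.78 (Cenpx was not analysed here). In 55.8% of them every tumor lay above every oviduct. The outer kinetochore beyond the Ndc80 complex had 10 of 14 genes higher (median 1.52), led by Kntc1 at 2.33 and Casc5 at 2.23, and the inner kinetochore 5 of 16 (median 0.61). Other checkpoint genes and mitotic kinases had 10 of 20 higher (median 1.10), among them Pbk at 2.77, Cks2 at 2.49 and Ccna2 at 2.25. Of the other spindle and cytokinesis genes, 17 of 31 rose (median 1.60), with Ckap2 at 2.85, Cep55 at 2.80 and Spag5 at 2.73. Condensin II and cohesin had 4 of 15 higher (median 0.33), 2 of them the shugoshins Sgol2 and Sgol1, which guard centromeric cohesion, at 2.43 and 2.39. The core anaphase-promoting complex and its regulators had 0 of 17 called by limma in either direction (median 0.27). By limma, 7 of the 17 had an unadjusted p under 0.05, 6 of them higher. Over all 19435 genes, 8175 had such a p in either direction. Limma-voom called 1 of the 17 higher (Fbxo5). The activator Cdc20 and the carrier Ube2c of this complex rose. The fallers were Hjurp, the chaperone that loads Cenpa, with a mean of 5813 ± 1090 normalized counts over the oviducts (SD, n = 5) and 2188 ± 711 over the tumors (SD, n = 4) and a log2 change of -1.44 ± 0.23 (SE, adjusted p = 0.00103 by limma), and Kif24. Kif24, a kinesin that restrains cilium assembly, had means of 128 ± 29.0 and 45.3 ± 20.1 (log2 change -1.22 ± 0.25 SE, adjusted p = 0.00484 by limma). As with Nek2, the ciliated cell markers fell alongside, and their part was not tested. Among 35 genes of DNA replication, 23 rose and 0 fell by limma or limma-voom, with 0 lower at an unadjusted p under 0.05 (median 1.18), with Rrm2 and Mcm5 at 2.65 and 2.62. The lists differ in level and in the rules that made them, and the differences between them were not tested.

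**Figure D5:**
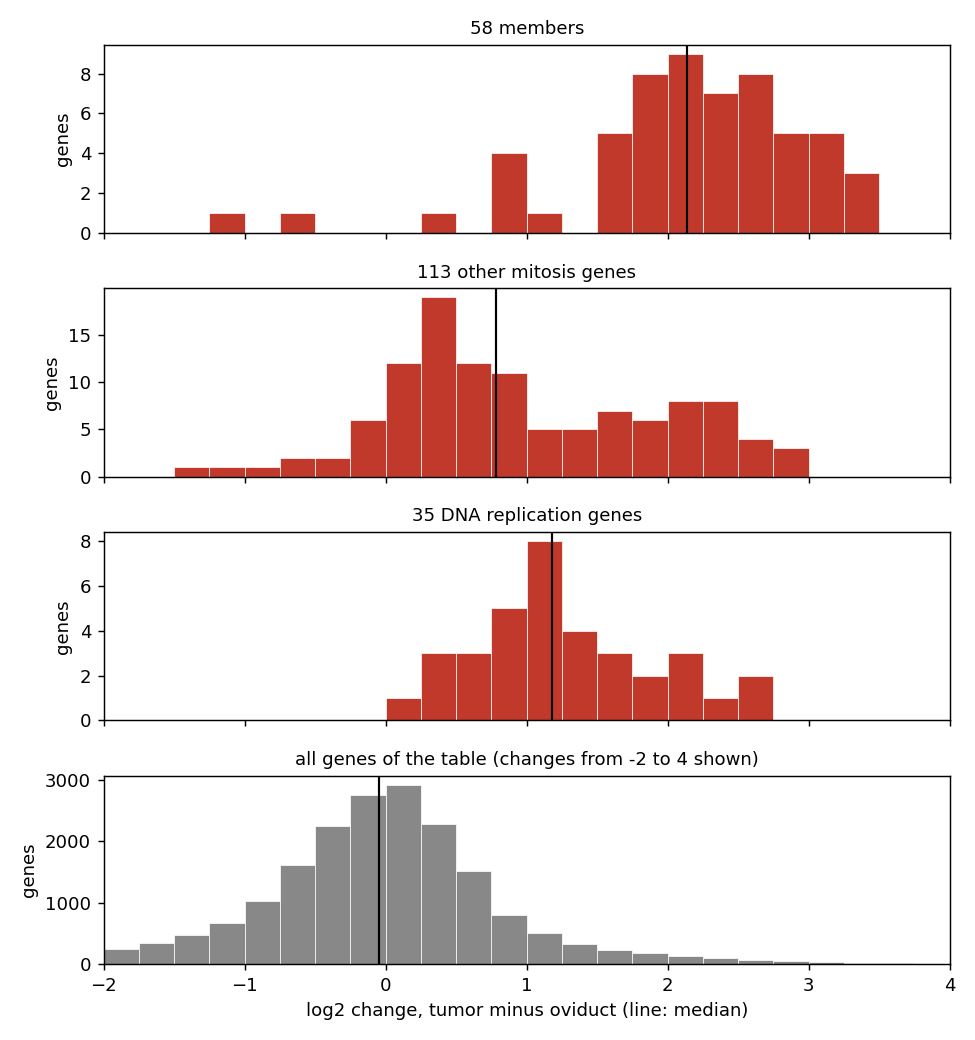
Number of genes (vertical axis) by log2 change, tumor minus oviduct (horizontal axis), for the 58 members, the 113 other mitosis genes, the 35 DNA replication genes and all genes, with a line at each median (2.13, 0.78, 1.18 and -0.05). Most members lie right of 1.5, while the other mitosis genes spread from below 0 to near 3.

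Set against the promoters printed above, the 35 genes with a CHR core had a median log2 change of 2.44, and 34 of them rose. The 15 genes whose promoters held no exact match to this core had a median of 2.04, and 10 of them rose. Ccnb1, with the largest change, was among the latter, as were Nek2 and Pttg1, while Bub3, with the smallest, was among the former. The searched windows of Pttg1, without the core, and of Cdca8, Kif2c, Cdca3 and Kif4, with it, lie inside the annotated genes. For Ccnb1 only the exact core was searched. The groups overlap over nearly their whole range (0.45 to 3.39 and -1.06 to 3.46), and the difference was not tested.

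Reads of some members could be shared with other genes. Exons of 17 members overlap those of another gene, and for 6 the overlap is with a gene on the opposite strand and covers at least 10% of the member's exonic bases: Kif20a with Cdc23 (29.3%), Ube2c with Tnnc2 (22.8%), Kif4 with Pdzd11 (15.1%), Ncapg with Lcorl (13.4%), Cdc25c with Gm3550 (12.7%) and Prc1 with Rccd1 (11.1%). Whether the counting used strand is not given in the sources used here. Mean normalized counts in oviducts and tumors were 774 and 1110 for Cdc23, 619 and 501 for Lcorl, 260 and 228 for Pdzd11, 184 and 212 for Rccd1 and 2.41 and 31.9 for Tnnc2. Most of these partners were as high as the member or higher in the oviducts, and the part of shared reads was not tested. Pseudogene copies are annotated for Ccnb1, Ccnb2, Kif22 and Kif4.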

How the data were processed

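Polyadenylated RNA of 5 oviducts and 4 tumors was sequenced, and the authors deposited 1 table of log2 values per gene and library. The submitters' processing notes name FastQC 0.11.5, STAR 2.5.3a, HTSeq and the build GRCm38 (mm10). The annotation, the strandedness and the transformation are not given in the sources used here. The deposited log2 values shared a floor of 3.427 and could be inverted to whole reads for 100% of values (within 0.05 reads), as for a variance-stabilizing transformation of counts divided by size factors. From these came the normalized counts. The totals above set the precision of a count, and a gene with no read may hold up to 3. Reads are not independent molecules, so this covers counting error only.

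The deposited log2 values were tested with limma 3.58.1 (R 4.3.3), letting the prior variance follow the mean level. Tests were two-sided and the p-values were adjusted by Benjamini and Hochberg's method across all 19435 genes, in a fit of 2 groups or in 3 genotype groups. On the recovered reads, limma-voom called 1261 genes higher and 2850 lower in the tumors. The test was checked on simulated data. Nothing in the labels paired oviducts with tumors, and replicate numbers were not taken as pairs. Alternatives were quantile normalization, limma-voom, no trend, array weights, a filter on low genes, no minimum change, a replicate block and leaving out libraries. All 58 members may be named. Values in every library are given for the largest and the smallest change in each role, for members not called or overlapping between groups, and for a list of well-known mitosis genes. Of the other lists, up to 4 risers and every faller are named. Member and marker lists were chosen with earlier results of these data known. Gene positions and lengths are from GENCODE M21. Of the other marker lists, 0 of 10 genes of T and NK cells, 0 of 6 of red cells and 0 of 6 of fat cells were called by limma or limma-voom, with 0, 0 and 1 at an unadjusted p under 0.05. Called were 1 of 8 of B and plasma cells (lower), 2 of 7 of skeletal muscle (higher), 4 of 9 of smooth muscle (lower) and 4 of 10 of secretory cells (1 higher, 3 lower).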

Additional observations from a re-analysis of the deposited data

Results flagged for a closer look

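A level was picked out when 1 library lay far from the rest of its group, by Dixon's test at 95%. Chance alone would pick out about 1 in 20 groups, and 7 of the 116 groups of the 58 genes were picked out. In the tumors, Cdca3 in tumor 1 had 501.1 normalized counts where the other 3 had 224.8 to 234.5, and Nuf2 in tumor 4 had 73.6 where the others had 141.9 to 156.4. In the oviducts, Pttg1 in oviduct 5 had 25.7 against 323.1 to 496.5 in the other 4, and without it the log2 change of Pttg1 in the tumors was -1.21 in place of -0.55. Kif15 in oviduct 4 had 129.7 against 44.7 to 54.7, and Bub1b in the same oviduct had 149.3 against 84.9 to 99.3. Cdca8 in oviduct 1 had 22.3 against 39.7 to 48.8. Ncapg in oviduct 2 had 37.4 against 47.8 to 50.3, a small gap in absolute terms. Without the library concerned, the genes other than Pttg1 kept their calls.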

How the results depend on the processing

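Over 17 alternatives, no member reversed direction where it was called in the main fit or in the alternative. A change of sign in a member called in neither was not counted. Of the 51 members called higher, 50 were called in every alternative that tested them, the exception being Cenpk. The filter on low genes left out Cdc25c and Cenpm. Of 984 values, 960 kept their side of the threshold, 8 lost the call and 16 gained it. Members called higher numbered 50 to 55 in all settings, and the count leaving out 1 library at a time was 50 to 52. Quantile normalization moved the median log2 change of all genes from -0.05 to 0.08, left 0 members and 1 other mitosis gene (main value 2) called lower, and took Kif24 to -0.99. With no minimum change, 5 other mitosis genes were lower, and the whole table gave 2446 calls upward and 3605 downward in place of 1269 and 2356. With limma-voom on the recovered reads, which does not compress low counts, the members' median was 2.96 against all oviducts, 3.23 against Dicer1+/D1693N and 2.62 against Dicer1+/+. Members called lower against Dicer1+/D1693N numbered 1 with limma-voom and 1 without tumors 1 and 4, a choice made after seeing the data. Leaving out 1 library at a time, members called lower were 0 to 1 against all oviducts, 0 to 1 against Dicer1+/D1693N and 0 to 1 against Dicer1+/+, and members called higher against Dicer1+/+ were 30 to 49. The other counts of members and listed genes stayed within 1.5 times their main value. Correlations of deviations between oviducts and tumors of the same number were 0.117, 0.061, -0.089 and 0.006. Those between unlike numbers ran from -0.146 to 0.139, and replicate numbers were not taken as pairs. Such correlations cannot show whether libraries shared an animal. With a replicate block, which leaves out oviduct 5, 51 members were called higher and 1 lower, with a median of 2.25. Pttg1 was then called lower (-1.21) and Mad2l1 higher (1.02), and Nek2 (-0.97) and Cenpk (1.19, adjusted p = 0.0872 by limma) were not called. Pttg1 had the highest standard error of the 58 genes (0.66).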
